A study of Physcomitrium patens with 12 samples.

Results

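Antheridia are the male organs of mosses, in which sperm that swim with flagella are made, and archegonia are the female organs, each of which holds an egg. Genes that are used in one organ can lie side by side on a chromosome, as copies left by local duplication or as unrelated neighbours, and genes of either kind can be transcribed together. The genes described here are those of the moss Physcomitrium patens that had many more reads in antheridia than in archegonia and whose next gene on the chromosome did too.

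The members were chosen on the 6 wild type libraries. A gene entered the antheridium-enriched set where its mean over the wild type antheridium libraries was at least 5 CPM (counts per 1000000 counts of the library) and where the log2 ratio of that mean to the mean of wild type archegonia, with 1 CPM added to each, was at least 3. The rows were then ordered by the chromosome and gene number in the identifier, in which Pp3c22_10520 stands for chromosome 22 and number 10520, and a gene was kept where the row before or after it on the same chromosome was also in the set. This gave 94 members of 32926 genes in the count table. They were the part with an enriched neighbour of 570 enriched genes on chromosomes, while 476 enriched genes had no enriched neighbour and 3 more lay on scaffolds without an order.

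The libraries came from mature organs of the strain Gransden, picked on day 18 of sporophyte induction, with 8 antheridia or 8 archegonia pooled in each. The 4 groups of 3 libraries were antheridia of the PpPINC mutant line pinC#29, antheridia of wild type, archegonia of the mutant line and archegonia of wild type. PIN proteins carry auxin, a plant hormone, out of cells. The mutant was a single line, and whatever else sets that line apart from wild type cannot be told apart from the mutation. The labels call the libraries biological replicates, but whether separate cultures were used is not stated, and p-values rest on the spread among these libraries, which may be technical.

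Total counts were between 19038033 and 39833129 per library, so that 3 counts, the limit that a count of 0 allows, stood for 0.0753 to 0.158 CPM. Such floors hold for counting error alone, because reads of amplified cDNA are not separate molecules. Genes with a count numbered 19088 in mutant antheridia 2, 20359 in mutant antheridia 3 and 19803 in mutant archegonia 3, and between 21654 and 24802 in the other libraries. The identifiers are not paired with names in the files, so no function is given to any member, and the organs could not be checked against named marker genes. As a check without names, the 50 genes on chromosomes that passed the same limits in the other direction, from wild type archegonia over wild type antheridia, summed to 1194, 1549 and 1830 CPM in mutant antheridia, against 5889, 1375 and 2953 CPM in wild type antheridia, and to 29626, 29695 and 25154 CPM in mutant archegonia, against 74102, 41113 and 42640 CPM in wild type archegonia. The organ difference of these sums in wild type follows from the choice, so they check the organs in the mutant libraries alone. The choice on wild type also bears on the difference between the genotypes. The locus Pp3c10_24880, taken from memory as that of PpPINC and not named by the files, had 66, 0 and 0 counts in mutant antheridia and 66, 39 and 165 counts in wild type antheridia, 3, 2 and 0 counts in mutant archegonia and 94, 38 and 56 counts in wild type archegonia. The library labelled mutant antheridia 1 thus does not stand apart from wild type at this locus. Calls between the organs and between the genotypes in antheridia are also given without it. The spacing of the set defined on mutant libraries, the overlap of libraries and the ratios within pairs are not.

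The 94 members formed 45 runs of consecutive rows, of which 41 held 2 genes and 4 held 3. Runs were found on 24 of 27 chromosomes, and on none of chromosomes 18, 21 and 26. Chromosome 2 held 12 members in 6 runs, chromosome 12 held 8 in 4 runs and chromosome 25 held 7 in 3 runs. Those on chromosome 25 were 1.06% of its 658 rows, the highest share of any chromosome, against 0.641% of the rows of chromosome 2. Enriched genes with or without a neighbour also had their highest share on chromosome 25, 2.89% of its rows, against 1.66% on chromosome 2. The members were thus scattered over short runs and not gathered in a few long ones.

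Set against the spacing of the enriched genes at large, next-row neighbours were frequent. The 570 enriched genes made up 1.77% of the chromosome rows. The row 1 place further on was also enriched for 8.60% of them, the row 2 places further on for 3.33%, and rows 3 to 10 places on for 1.76% to 2.81%. Genes with at least 5 CPM in wild type antheridia, of which there were 17118, were enriched in 3.33% of cases. Of 10405 adjacent pairs in which both genes reached 5 CPM there, 49 pairs were enriched on both sides and 647 on 1 side. No test was made of these shares, and whether neighbours share reads, as near-identical copies or overlapping genes could, cannot be told without their sequences.

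**Figure D1:**
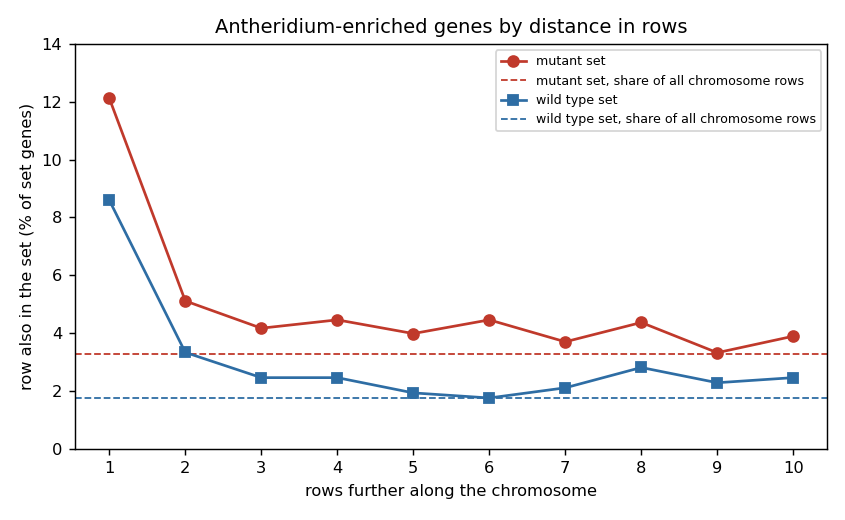
Percent of antheridium-enriched genes whose row at a given number of places further on is enriched as well, for the set defined in mutant libraries and the set defined in wild type libraries. In both sets the next row has the highest share, 12.1% in the mutant and 8.60% in wild type, and the shares at 3 to 10 places lie near the share of all rows in the set, drawn as a dashed line.

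The same pattern was present when the set was defined anew on the mutant libraries, which the rule had not used. With the same limits on mutant antheridia and mutant archegonia, 1056 genes on chromosomes passed, 3.28% of the rows, and 239 of them (22.6%) had a neighbour that passed. The next row was in the set for 12.1% of them, the row after it for 5.11% and rows 3 to 10 places on for 3.32% to 4.46%. These 239 genes lay in 111 runs, the longest of 4. They included 88 of the 94 members (93.6%), which were 36.8% of the 239. In archegonia, by the mirrored limits, 6 of 126 genes (4.76%) of the mutant and 4 of 50 (8.0%) of wild type had a neighbour in the same set, too few to compare.

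Identifier numbers within runs were close together. Most numbers in this table are multiples of 10. Of the 49 adjacent pairs of members, 12 (24.5%) differed by under 10, 26 (53.1%) by exactly 10 and 11 (22.4%) by more, up to 120. Over all 32207 adjacent rows the shares were 8.32%, 42.0% and 49.7%. Numbers that are no multiple of 10 were carried by 13 members (13.8%), by 7.72% of all enriched genes and by 9.44% of all chromosome genes.

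The rows next to the runs were mixed. Of the 90 that flanked them, 17 had under 1 CPM and 17 between 1 and 5 CPM in wild type antheridia. Another 40 reached 5 CPM with a log2 ratio to archegonia within 1 of 0, 15 had a ratio between 1 and 3, and 1 had a ratio of -1 or lower. That none of them was enriched in wild type follows from the rule. In the mutant libraries 5 of the 90 (5.56%) passed both limits, against 1.66% of all 32353 genes outside the wild type set. The latter include 5037 genes without a count, so these shares are not of genes at like levels. The flanking rows had a median of 11.1 CPM in mutant antheridia, against 13.4 CPM in wild type antheridia.

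The limits of the rule cut through a continuous range. Just inside the ratio limit were Pp3c25_6010 and Pp3c16_20729, each with a log2 ratio of 3.04, and just outside it, next to an enriched gene, were Pp3c1_33250 at 3.00 (2.99996) and Pp3c10_17490 at 2.99. The lowest means among members in wild type antheridia were 8.50 CPM for Pp3c17_2102 and 11.3 CPM for Pp3c8_7690. No gene was lost to the limit of 5 CPM alone, because the ratio with 1 CPM added already asks for more.

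Over the 94 members, the mean of a member had a median of 65.5 CPM in mutant antheridia (5.91 to 3243 CPM) and 47.3 CPM in wild type antheridia (8.50 to 2106 CPM). In archegonia the median was 0.749 CPM in the mutant (0 to 24.0 CPM) and 1.04 CPM in wild type (0 to 31.0 CPM). CPM are not corrected for gene length, so they show the share of reads and not which of a pair of genes had more transcripts. Summed over the members, counts made up 0.967%, 2.43% and 1.11% of the mutant antheridium libraries and 0.944%, 0.880% and 1.54% of the wild type ones. In archegonia they made up 0.00821%, 0.0267% and 0.0121% in the mutant and 0.0135%, 0.0174% and 0.0462% in wild type. In the mutant every antheridium library lay above every archegonium library. The same held in wild type, where the choice of members on these libraries asks for such a difference. In such bulk samples, fewer cells of a type and less RNA per cell cannot be told apart.

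**Figure D2:**
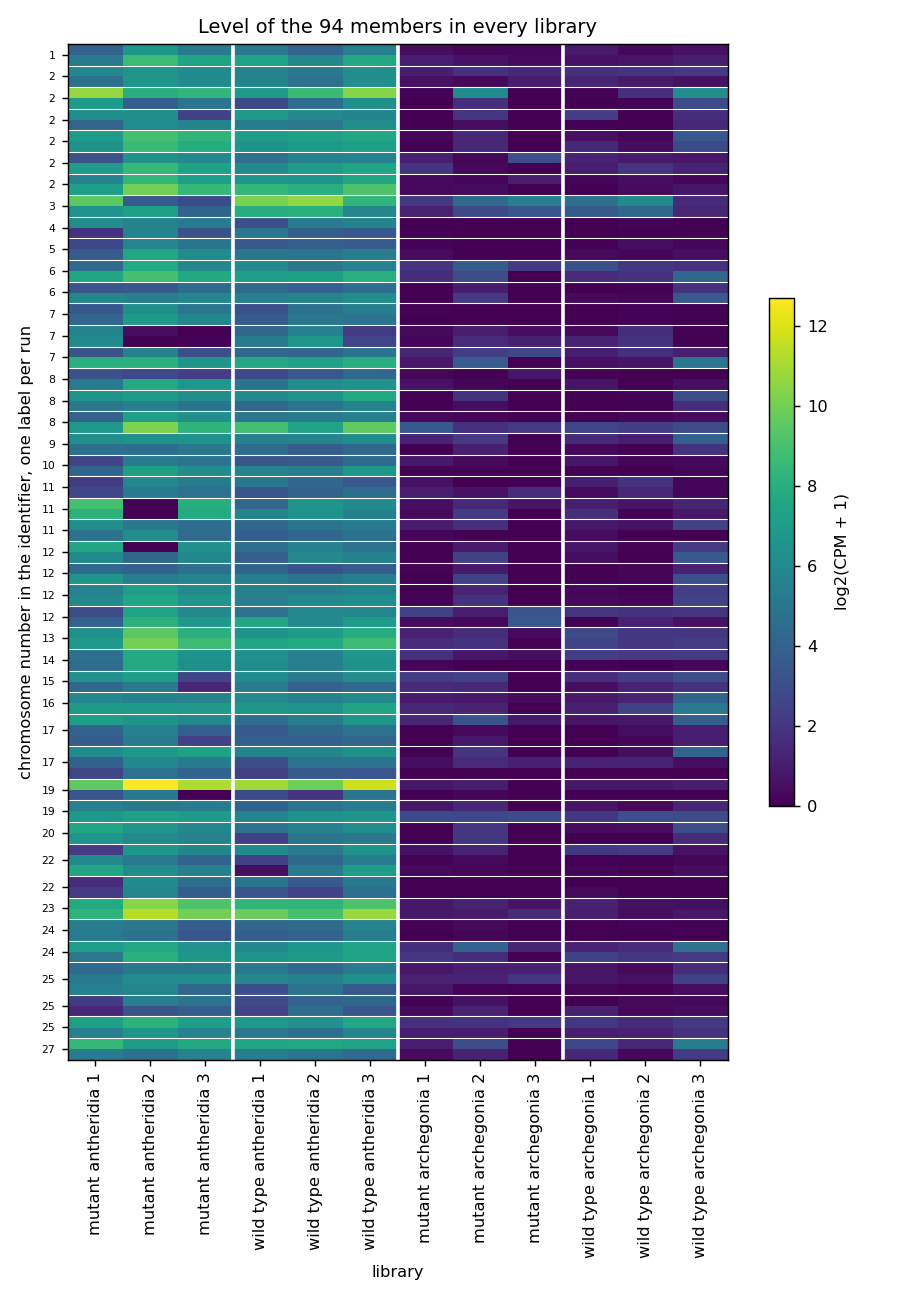
Level of each of the 94 members in each of the 12 libraries, as log2(CPM + 1), in chromosome order with runs separated by lines. Antheridium columns are high and archegonium columns low in most rows, and pairs such as Pp3c11_5670 and Pp3c11_5680 are both near 0 in mutant antheridia 2.

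The runs with the most reads in wild type antheridia are given first. The run of Pp3c19_7650 and Pp3c19_7660 summed to 3258 ± 3090 CPM in mutant antheridia, against 2118 ± 1257 CPM in wild type antheridia (SD, n = 3 each). Nearly all of it was Pp3c19_7650, with 762, 6683 and 2285 CPM in mutant antheridia, against 1928, 961 and 3429 CPM in wild type antheridia. In archegonia it had 0.788, 1.05 and 0 CPM in the mutant and 0.773, 0.760 and 1.00 CPM in wild type. Its neighbour had 9.71, 34.4 and 0 CPM in mutant antheridia, against 6.21, 2.78 and 28.3 CPM in wild type antheridia, with 0, 0.117 and 0 CPM in mutant archegonia and no count in wild type archegonia. Pp3c19_7650 was high in all 6 antheridium libraries, whereas Pp3c19_7660 had no count in mutant antheridia 3.

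The run on chromosome 23 held a pair with similar patterns. Pp3c23_5130 had 310.0, 2632 and 1061 CPM in mutant antheridia, against 887, 522 and 1755 CPM in wild type antheridia. Pp3c23_5120 had 215, 1384 and 561 CPM in mutant antheridia, against 332, 314 and 565 CPM in wild type antheridia. Both were highest in mutant antheridia 2 within their genotype and in wild type antheridia 3 within theirs, and both stayed between 0.330 and 1.91 CPM in all 6 archegonium libraries. Pp3c2_35879 and Pp3c2_35880, whose numbers differ by 1, behaved alike too. Pp3c2_35880 had 144, 1018 and 357 CPM in mutant antheridia, against 335, 248 and 574 CPM in wild type antheridia. Pp3c2_35879 had 49.5, 346 and 137 CPM in mutant antheridia, against 96.4, 93.9 and 176 CPM in wild type antheridia. In archegonia neither exceeded 1.00 CPM in the mutant or 0.641 CPM in wild type.

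Other abundant runs varied in a different way between libraries. Pp3c3_13600 had 722, 11.1 and 6.15 CPM in mutant antheridia, against 1141, 1616 and 314 CPM in wild type antheridia. Its neighbour Pp3c3_13630 had 88.4, 143 and 16.1 CPM in mutant antheridia, against 240.3, 268 and 53.8 CPM in wild type antheridia. Only the library labelled mutant antheridia 1 kept Pp3c3_13600 within the wild type range, while its level in mutant antheridia 2 and 3 was among those of the archegonia, which had 3.47, 20.3 and 43.0 CPM in the mutant and 24.9, 66.1 and 1.84 CPM in wild type.

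Pp3c2_18120 was the member with the highest mean in mutant archegonia, and its level there came from 1 library. It had 1648, 247 and 323 CPM in mutant antheridia, against 119, 408 and 1352 CPM in wild type antheridia, and 0.105, 71.8 and 0 CPM in mutant archegonia and 0.0966, 2.45 and 73.0 CPM in wild type archegonia. Its neighbour Pp3c2_18123 had 124, 12.7 and 28.8 CPM in mutant antheridia, against 6.30, 23.0 and 78.6 CPM in wild type antheridia, and 0, 2.42 and 0 CPM in mutant archegonia and 0, 0.0991 and 6.69 CPM in wild type archegonia. Both genes of this run were highest in the same library of each of the 4 groups. In mutant archegonia 2 and wild type archegonia 3 the 94 members together also had the most reads of their group, 267 and 462 CPM, and whether antheridial material was present in those libraries was not tested.

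The runs of 3 genes had lower levels. The run Pp3c25_2390, Pp3c25_2401 and Pp3c25_2410 differed least in mean log2 CPM of mutant antheridia, over 1.07 log2 units. Pp3c25_2401 had 35.2, 69.2 and 78.9 CPM in mutant antheridia, against 58.4, 45.0 and 83.6 CPM in wild type antheridia, and Pp3c25_2390 had 19.6, 33.5 and 34.1 CPM in mutant antheridia, against 32.0, 19.0 and 35.6 CPM in wild type antheridia. For both, the genotypes overlapped throughout. Pp3c25_2410 differed from them, with a log2 ratio of mutant to wild type antheridium means of 1.42. That ratio was 0.011 for Pp3c25_2390 and -0.029 for Pp3c25_2401. The run Pp3c17_2085, Pp3c17_2090 and Pp3c17_2102 differed most, over 2.79 log2 units. Pp3c17_2085 had 70.8, 108 and 154 CPM in mutant antheridia, against 50.6, 56.6 and 87.9 CPM in wild type antheridia, and Pp3c17_2102 had 5.25, 26.6 and 16.4 CPM in mutant antheridia, against 4.29, 11.2 and 9.98 CPM in wild type antheridia. Of Pp3c17_2102, 1 count was found in the mutant archegonium libraries and none in the wild type ones. In the run Pp3c17_360, Pp3c17_370 and Pp3c17_380, which spanned 2.42 log2 units, Pp3c17_360 had 137, 93.5 and 59.1 CPM in mutant antheridia, against 22.2, 39.4 and 105 CPM in wild type antheridia, and Pp3c17_380 had 12.2, 37.1 and 4.67 CPM in mutant antheridia, against 14.5, 13.9 and 17.6 CPM in wild type antheridia.

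The run Pp3c22_10520, Pp3c22_10527 and Pp3c22_10530 showed members that did not follow each other from library to library. Pp3c22_10530 had 192, 71.2 and 42.6 CPM in mutant antheridia, against 0.365, 38.0 and 131 CPM in wild type antheridia. Pp3c22_10520 had 4.02, 101 and 54.7 CPM in mutant antheridia, against 66.2, 38.5 and 87.6 CPM in wild type antheridia. The gene at one end of the run was thus highest in the mutant library in which the gene at the other end was lowest. In wild type antheridia 1 Pp3c22_10530 was nearly absent, while Pp3c22_10520 lay between its levels in the other wild type antheridium libraries. The gene between them, Pp3c22_10527, had 64.9, 33.7 and 15.7 CPM in mutant antheridia, against 4.52, 18.3 and 39.8 CPM in wild type antheridia, in the same order of libraries as Pp3c22_10530.

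**Figure D3:**
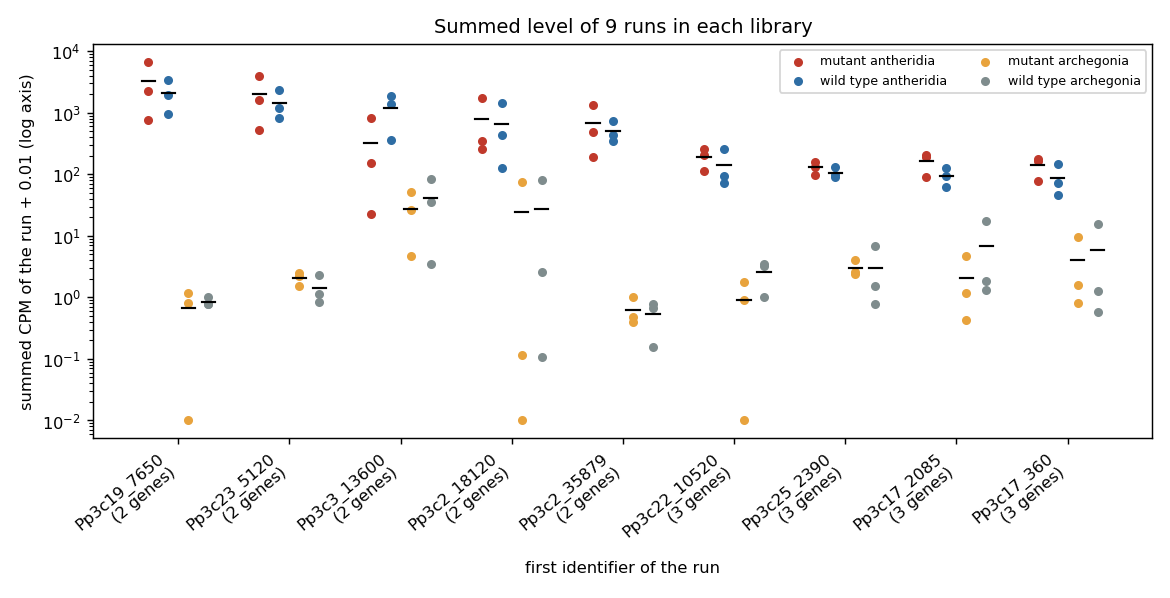
Summed CPM of each run described above, plus 0.01, on a log axis, with 1 point per library, a bar at the mean of 3 libraries and the groups of each run in the order mutant antheridia, wild type antheridia, mutant archegonia, wild type archegonia. The run of Pp3c3_13600 reaches down to 22.3 CPM in mutant antheridia, against 367 CPM or more in wild type antheridia, and overlaps the archegonia.

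The organ difference was tested in the 6 mutant libraries alone, so that no library behind the choice of members entered the test. Every member was kept by the filter on low counts over all 12 libraries, which left 22792 genes. Of the 94 members, 65 (69.1%) were higher in mutant antheridia than in mutant archegonia by edgeR's quasi-likelihood test at a Benjamini-Hochberg adjusted p under 0.05, and 0 were lower. Of all genes tested, 2.56% were called higher and 0.171% lower. The fitted log2 fold change was above 0 in all 94, as in 45.9% of all genes, with a median of 6.89 against -0.09 over all genes. It ran between 2.70 and 12.64 in the 91 members with a count in mutant archegonia, and setting the other 3 at the bound that 3 counts give left the median at 6.89. At an unadjusted p under 0.05 the count was 92, and the adjusted p ran between 0.00315 and 0.380. In 85 members (90.4%) the lowest mutant antheridium library lay above the highest mutant archegonium library, against 8.94% of all genes tested. Enriched genes without an enriched neighbour were called higher in 304 of 474 tested (64.1%), with a median of 6.17, so the share of members lay near theirs.

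The number of calls rested on single libraries of 3, for all genes as for the members. All 6 libraries gave 65 members among 622 genes called in either direction. Without mutant archegonia 1 these were 24 of 109, without mutant archegonia 3 they were 14 of 50 and without mutant antheridia 3 they were 40 of 364. Without the library labelled mutant antheridia 1 there were 55 members among 484 genes, without mutant antheridia 2 there were 49 among 557 and without mutant archegonia 2 there were 66 among 592. With all 12 libraries in 1 fit, 87 members (92.6%) were called higher, against 6.74% of all genes. In that fit without mutant antheridia 2 and 3 and mutant archegonia 3, the libraries with the fewest genes detected, 55 members were called among 1273 genes in either direction. The library labelled mutant antheridia 1 is then the only one of its group, and its spread is assumed to be that of the other groups. In the authors' deposited table of this comparison, 83 of the 94 members (88.3%) had an adjusted p under 0.05 and a higher level in mutant antheridia, and 0 had a lower one, against 6.26% higher and 1.3% lower among 23137 genes.

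The same limits as in the rule, applied to the mutant means, gave 91 of 94 members (96.8%). Of the enriched genes without an enriched neighbour 429 of 476 (90.1%) passed them, of all genes 3.22%, of genes tested 4.65%, and of genes outside the wild type set 1.66%. Without 1 mutant library at a time 84 to 91 members passed, and 76 passed without the 3 libraries with the fewest genes detected, where mutant antheridia 1 alone stands for its group. The exceptions were Pp3c7_20010, Pp3c8_7690 and Pp3c25_6010, each of which had a neighbour that passed. Pp3c7_20010 had 8.84, 45.8 and 7.71 CPM in mutant antheridia, against 1.47, 4.02 and 5.46 CPM in mutant archegonia. Pp3c8_7690 had 7.92, 5.93 and 3.89 CPM in mutant antheridia, against 0.158, 0 and 0.679 CPM in mutant archegonia, while its neighbour Pp3c8_7700 had 37.4, 219 and 107 CPM in mutant antheridia, against 0.525, 0.156 and 0 CPM in mutant archegonia. Pp3c25_6010 had 1.79, 8.44 and 12.4 CPM in mutant antheridia, against 0.263, 1.33 and 0 CPM in mutant archegonia. In all 3 members the mutant antheridium libraries lay above the mutant archegonium ones, though the nearest libraries were 1.79 against 1.33 CPM for Pp3c25_6010 and 7.71 against 5.46 CPM for Pp3c7_20010.

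By run, every member was called higher in 25 of the 45 runs, some but not all in 11 and none in 9. Among the runs of 3, every member was called in 3. The fitted difference was largest for Pp3c10_14830 and Pp3c4_2290, neither of which had a count in any mutant archegonium library. Pp3c10_14830 had 16.1, 149 and 73.7 CPM in mutant antheridia (edgeR adjusted p = 0.0128), at least 2003-fold higher than the 3 counts that a count of 0 over the mutant archegonia allows, or at least 1131-fold higher without mutant antheridia 2. It had 52.6, 45.0 and 108 CPM in wild type antheridia and 0.0483, 0 and 0.160 CPM in wild type archegonia. Its neighbour Pp3c10_14820 had 5.25, 36.5 and 27.2 CPM in mutant antheridia, against 0.840, 0.234 and 0 CPM in mutant archegonia, and differed by 6.40 ± 1.31 log2 units (SE; edgeR adjusted p = 0.0267). Pp3c4_2290 had 74.3, 51.1 and 36.1 CPM in mutant antheridia (edgeR adjusted p = 0.00458), at least 1357-fold higher than the same floor. Its neighbour Pp3c4_2301 had 2.58, 50.1 and 7.76 CPM in mutant antheridia, against 2 counts in mutant archegonia, and was not called (edgeR adjusted p = 0.0595). This run had 1 gene on each side of the threshold, with no overlap between the organs in either gene.

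Runs with no called member included abundant ones. Pp3c3_13600 differed by 3.53 ± 1.63 log2 units (SE) between mutant antheridia and mutant archegonia (edgeR adjusted p = 0.379), and Pp3c2_18120 by 5.0 ± 2.05 log2 units (edgeR adjusted p = 0.308). Their summed levels in mutant antheridia were 811, 154 and 22.3 CPM for the run of Pp3c3_13600 and 1772, 259 and 352 CPM for that of Pp3c2_18120. Over all runs, the summed level in mutant antheridia did not overlap that in mutant archegonia in 42 of 45. Taken singly, 404 enriched genes without an enriched neighbour (84.9%) lay higher in mutant antheridia without overlap, as did 8.94% of all genes tested. Sums over other adjacent genes were not made.

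The question of the series, as its title puts it, is how the mutated protein acts in spermatogenesis, and the genotypes were therefore compared within antheridia. No member was called between mutant and wild type antheridia (edgeR, adjusted p under 0.05). Among all genes 0% were called higher and 0.0132% lower. At an unadjusted p under 0.05 there were 2 members (2.13%), against 8.39% of all genes, and the smallest adjusted p of a member was 0.573. The wild type libraries in this contrast also chose the members. The fitted log2 fold change was above 0 in 83 members (88.3%) and in 52.3% of all genes, with a median of 0.73 over members, 0.66 over enriched genes without an enriched neighbour and 0.05 over all genes.

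This shift rested on 1 library. Without mutant antheridia 2 the median over members was 0.07 and 51 members were above 0. Without the library labelled mutant antheridia 1 the median was 0.86, with 16 members at an unadjusted p under 0.05. Calls over all genes at the adjusted p also rose in that setting (below). No share of all genes at an unadjusted p is given for it, so whether the 16 are particular to members cannot be told. The median member had 2.22 times as many CPM in mutant antheridia 2 as in the mean of the other mutant antheridium libraries, and 59 of 94 members were highest there among the 3, with 25 highest in mutant antheridia 1 and 10 in mutant antheridia 3. In wild type, 69 members were highest in wild type antheridia 3, where the corresponding median was 1.64. Enriched genes without an enriched neighbour made up 7.57%, 17.7% and 9.24% of counts in mutant antheridia and 8.22%, 6.86% and 10.1% in wild type antheridia, the same order of libraries as for the members in both genotypes. Mutant antheridia 2 and 3 were also the antheridium libraries with the fewest genes detected, and the part of this in the result was not tested.

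In 4 members every mutant antheridium library lay above every wild type one (4.26%, against 2.92% of all genes tested), and in 0 below (against 7.63%). They were named after their values were seen. Pp3c9_14870 had 79.8, 87.5 and 88.8 CPM in mutant antheridia, against 47.2, 50.9 and 79.7 CPM in wild type antheridia, and its neighbour Pp3c9_14880 had 24.6, 23.2 and 31.7 CPM in mutant antheridia, against 21.7, 13.1 and 18.3 CPM in wild type antheridia. Pp3c20_12010 had 102, 63.7 and 50.1 CPM in mutant antheridia, against 4.38, 28.6 and 31.9 CPM in wild type antheridia. The fourth, Pp3c19_15330, had 107, 155 and 120.2 CPM in mutant antheridia, against 49.6, 86.7 and 101 CPM in wild type antheridia. Their edgeR adjusted p lay between 0.597 and 0.858, and summed over runs, the 3 runs they belong to were the ones without overlap.

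The smallest p among members higher in mutant antheridia was that of Pp3c5_15435, with 11.9, 191 and 68.9 CPM in mutant antheridia, against 31.1, 28.9 and 40.4 CPM in wild type antheridia (log2 fold change 1.65 ± 0.70 SE, edgeR adjusted p = 0.573). Its neighbour Pp3c5_15430 had 5.77, 54.2 and 29.6 CPM in mutant antheridia, against 10.5, 13.4 and 11.3 CPM in wild type antheridia. In both genes the library labelled mutant antheridia 1 lay below all wild type ones. Without mutant antheridia 2 the log2 fold change of Pp3c5_15435 was 0.39. The smallest p among members lower in mutant antheridia was that of Pp3c3_13600, described above (log2 fold change -2.02 ± 1.47 SE, edgeR adjusted p = 0.732). Without the library labelled mutant antheridia 1, the 1 mutant library within the wild type range, it was -6.71 (edgeR adjusted p = 0.0745), and without 1 of the other libraries it ran up to -1.45.

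Some members had hardly a read in single antheridium libraries. Counting a level under 1 CPM in an antheridium library, a limit chosen after the values were seen, there were 9 cases among the 564 values of the members (1.60%), in 7 genes, against 3.40% among enriched genes without an enriched neighbour. Of these, 5 were in mutant antheridia 2, 3 in mutant antheridia 3 and 1 in wild type antheridia 1. In 6 of the 9 the neighbour was under 1 CPM in the same library. These 6 came only from the pair Pp3c7_9420 and Pp3c7_9490 and the pair Pp3c11_5670 and Pp3c11_5680, and each shared case is counted once for each gene.

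The pair Pp3c11_5670 and Pp3c11_5680 varied widely between mutant libraries. Pp3c11_5670 had 484, 0.0393 and 245 CPM in mutant antheridia, against 17.5, 94.9 and 63.9 CPM in wild type antheridia, and Pp3c11_5680 had 300.1, 0.0393 and 225 CPM in mutant antheridia, against 52.0, 87.0 and 47.6 CPM in wild type antheridia. Each was represented by 1 count in mutant antheridia 2, while in mutant antheridia 1 and 3 both exceeded every wild type library. Pp3c7_9420 and Pp3c7_9490 were near 0 in both mutant antheridia 2 and mutant antheridia 3. Pp3c7_9490 had 67.1, 0.0393 and 0.0753 CPM in mutant antheridia, against 38.3, 97.8 and 5.29 CPM in wild type antheridia, and Pp3c7_9420 had 51.8, 0.393 and 0 CPM in mutant antheridia, against 17.9, 46.5 and 3.54 CPM in wild type antheridia. Wild type antheridia 3 was also the lowest wild type library for both. Without the library labelled mutant antheridia 1, Pp3c7_9490 was the 1 member called lower in mutant antheridia (log2 fold change -9.32 ± 1.86 SE, edgeR adjusted p = 0.0443), while with all libraries its adjusted p was 0.881. Over all genes, 163 were called in either direction without that library, against 3 with all libraries. Pp3c12_2820 had 183, 0 and 83.5 CPM in mutant antheridia, against 25.1, 45.8 and 25.7 CPM in wild type antheridia, and its neighbour Pp3c12_2830 had 67.3, 18.6 and 60.8 CPM in mutant antheridia, against 13.5, 62.7 and 47.5 CPM in wild type antheridia, so there only 1 gene of the pair was missing from mutant antheridia 2.

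Both genes of a pair were often highest in the same library. The highest of the 6 antheridium libraries was the same for both genes in 35 of 49 adjacent pairs (71.4%) and in 38.4% of the 4318 pairs of members from different runs. In archegonia, by the highest of 6 libraries, the shares were 49.0% and 27.1%. Other adjacent pairs of genes were not counted in this way, so these shares are not shown to be particular to the runs. For the ratio of mutant to wild type antheridium means, the median difference between neighbours was 0.348 log2 units, and 44 of 49 pairs (89.8%) lay within 1 log2 unit. Between members of different runs the median difference was 0.555. Among 10347 other adjacent pairs with at least 5 CPM in wild type antheridia it was 0.615, and 71.3% lay within 1 log2 unit. Members had at least 8.50 CPM there, with a median of 47.3 CPM, and the pairs were not matched by level. Without mutant antheridia 2 the medians were 0.435 for neighbours and 0.737 between runs. All pairs share the same libraries, and no test of these differences was made.

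By the spacing of the numbers, neighbours that differed by under 10 had a median difference of 0.123 log2 units in this ratio (12 pairs), those that differed by exactly 10 had 0.348 (26 pairs) and those further apart 0.349 (11 pairs). Without mutant antheridia 2 these medians were 0.376, 0.499 and 0.389. The neighbour with more reads in wild type antheridia also had more in mutant antheridia in 45 of 49 pairs. By run, the mutant over wild type ratio was above 1 in every member of 32 runs, below 1 in every member of 5 and mixed in 8, and without mutant antheridia 2 these numbers were 14, 14 and 17. Neither the order within pairs nor the signs by run were counted over other adjacent genes. The range within a run had a median of 0.379 log2 units and reached 1.85 in the run of Pp3c8_7690 and Pp3c8_7700.

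**Figure D4:**
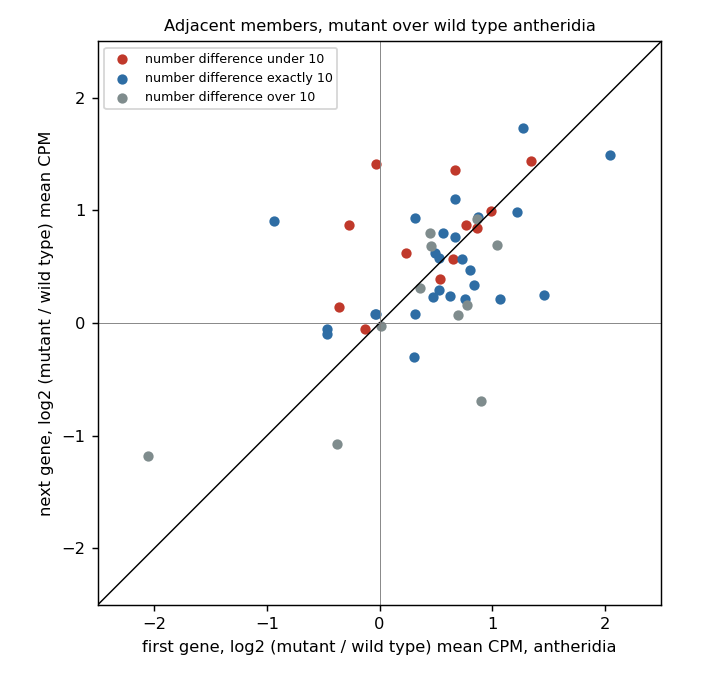
Log2 ratio of mean CPM in mutant antheridia over wild type antheridia for the first gene (horizontal axis) and the next gene (vertical axis) of each of the 49 adjacent pairs of members. Colours give the difference between the identifier numbers. Most points lie near the diagonal, with 44 pairs within 1 log2 unit of it, and most lie above 0 on both axes.

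In archegonia no member was called between the genotypes (edgeR, adjusted p under 0.05), and 0% of all genes were called in either direction. At an unadjusted p under 0.05 there were 3 members (3.19%), all lower in mutant archegonia, against 1.13% of all genes. The wild type archegonium libraries in this contrast also chose the members, by a low level there, which was not asked of all genes. The fitted log2 fold change was below 0 in 69 of 94 members and above 0 in 25 (26.6%, against 47% of all genes), with a median of -0.70 against -0.03 over all genes, and -0.75 over enriched genes without an enriched neighbour. Without wild type archegonia 3 the median was 0.21 and 53 members were above 0, and of the 94 members 44 were highest in that library among the 6 archegonium libraries. Mutant archegonia 3 held a count of 31 members, against 72 and 85 in mutant archegonia 1 and 2 and 71 to 86 in wild type archegonia, although its total count was the highest of the 6.

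The lowest p in archegonia belonged to a run. Pp3c16_20729 had 0.893, 0.781 and 0.291 CPM in mutant archegonia and 0.821, 1.35 and 15.9 CPM in wild type archegonia (log2 fold change -3.25 ± 0.92 SE, edgeR adjusted p = 1). Pp3c16_20730 had 1.79, 1.44 and 0 CPM in mutant archegonia and 1.16, 4.53 and 32.6 CPM in wild type archegonia. In both genes the difference lay mainly in wild type archegonia 3, and without that library the log2 fold change of Pp3c16_20729 was -0.77. Both genes were even across the mutant antheridium libraries, Pp3c16_20729 with 59.0, 46.8 and 50.4 CPM in mutant antheridia, against 63.3, 45.5 and 62.2 CPM in wild type antheridia, and Pp3c16_20730 with 119, 117 and 112 CPM in mutant antheridia, against 104, 86.9 and 171 CPM in wild type antheridia. In the other direction, Pp3c12_11560 had 0.315, 0.195 and 9.86 CPM in mutant archegonia and 0.0483, 1.22 and 0.481 CPM in wild type archegonia (log2 fold change 2.55 ± 1.36 SE, edgeR adjusted p = 1), and without mutant archegonia 3 its sign turned to -1.29.

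In 4 members every mutant archegonium library lay below every wild type one (4.26%, against 5.85% of all genes tested), and in 0 above (against 2.54%). Here too the wild type libraries had entered the choice of members. Among them were both genes of a run on chromosome 13. Pp3c13_21860 had 1.21, 2.11 and 0.291 CPM in mutant archegonia and 6.52, 3.24 and 3.00 CPM in wild type archegonia, and Pp3c13_21870 had 2.05, 2.50 and 0 CPM in mutant archegonia and 4.93, 3.01 and 3.81 CPM in wild type archegonia. In antheridia the order of the means was the other way round. Pp3c13_21860 had 80.9, 704 and 257 CPM in mutant antheridia, against 87.4, 129 and 231 CPM in wild type antheridia, and Pp3c13_21870 had 116, 1073 and 417 CPM in mutant antheridia, against 184, 215 and 413 CPM in wild type antheridia, with the library labelled mutant antheridia 1 below all wild type ones for both.

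The genotype difference of antheridia less that of archegonia was tested as an interaction. No member was called (edgeR, adjusted p under 0.05), nor was any of the 22792 genes, in either direction (0%). At an unadjusted p under 0.05 there were 7 members (7.45%), against 4.22% of all genes. The median was 1.33 over members, 1.35 over enriched genes without an enriched neighbour and 0.06 over all genes. The wild type libraries of both organs chose the members and enter this contrast. The genotype medians within antheridia and within archegonia each rested on 1 library, as given above. Pp3c13_21860 had the smallest p among positive values (3.21 ± 1.12 log2 units, SE; edgeR adjusted p = 0.961), and Pp3c8_7690 among negative ones (-4.15 ± 2.25 log2 units, SE; edgeR adjusted p = 0.961). Pp3c8_7690 had 2 counts in wild type archegonia, so that its fitted value depends on the prior count. Without 1 library it ran between -6.79 (without wild type archegonia 1) and -2.05 (without mutant archegonia 3). The value of Pp3c13_21860 ran between 2.04 (without mutant antheridia 2) and 3.99 (without mutant archegonia 2). DESeq2, limma-voom and the legacy edgeR fit also called 0 members in the genotype contrasts of both organs and in the interaction. Over all genes DESeq2 called 189 in antheridia, 9 in archegonia and 48 for the interaction, while limma-voom and the legacy fit called 0 in each. The authors' deposited tables called 0 of the 94 members between the genotypes in antheridia, where 0.0238% of genes were called higher and 0.0476% lower, and 0 in archegonia, where 0.0443% of genes were called higher and 0.0222% lower and 19 of the members had an adjusted p.

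Spread between libraries was taken over the members in every group and not over other genes. The median coefficient of variation over members was 73.8% in mutant antheridia and 43.9% in wild type antheridia, and 122% in mutant archegonia and 103% in wild type archegonia. In mutant archegonia 56 of the 94 members averaged under 1 CPM, so counting error enters the value there.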

How the data were processed

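Read counts per gene, in whole numbers, were deposited by the authors for the 12 libraries. The authors' deposited comparison tables hold a log2 fold change, a p-value and its adjusted p-value per gene. Per the labels' protocols, organs were picked into TRIzol and cDNA was made by Smart-seq2, which marks no strand and carries no molecular identifiers. Per the submitters' processing notes, Trim Galore 0.6.6, cutadapt 2.10, HISAT2 2.1.0 and DESeq2 2.11.40.6 were used. The sources used here do not give the counter, its strand setting, the genome build or the annotation. Reads of overlapping or near-identical genes may therefore be split or shared between neighbours. None of the identifiers matched the 27567 genes of the RefSeq table of ASM5946719v1 (0 matched), so no names or sequences are given.

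Levels are CPM over the total of the column, with no pseudocount except in the ratio of the rule. Members and lists were chosen with earlier results of these data known. Tests were edgeR 4.0.16 quasi-likelihood tests (R 4.3.3, TMM, robust, non-legacy fit) on the counts of genes kept by filterByExpr over all 12 libraries, adjusted by Benjamini-Hochberg over 22792 genes at 0.05. The organ contrast used the 6 mutant libraries and the genotype contrasts and interaction all 12. The standard error is the absolute log2 fold change over the square root of F. The scripts were tested on simulated data. Alternatives were RLE scaling, no filter, a replicate block, DESeq2 1.42.0, limma-voom 3.58.1, the legacy edgeR fit, each library left out, and other limits for the members.

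Named genes were the 5 longest and 5 most abundant runs, the runs of 3 that differed most and least, the 2 genes on each side of a limit, and per test the 2 called members with the largest change in each direction, or the smallest p in each direction where none was called; other names were chosen after their values were seen. Same-numbered libraries did not deviate together, so the numbers were not taken to pair them. No library pair agreed within sampling noise.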

Additional observations from a re-analysis of the deposited data

How the results depend on the processing

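The choice of members depended on the ratio limit and on 1 library. With a log2 ratio of at least 2 there were 252 members in 116 runs and with at least 4 there were 35 in 17 runs. Without wild type archegonia 3 there were 187 in 86 runs, and without wild type archegonia 3 and wild type antheridia 3, chosen after seeing the data, 164 in 77 runs. Leaving out 1 wild type library at a time gave 74 to 187 members in 36 to 86 runs.

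The 65 members called in the mutant between organs, among 622 genes, became 38 of 229 with a replicate block, 25 of 189 with the legacy edgeR fit and 1 of 24 with limma-voom, and 14 of 50 to 66 of 592 without 1 library. RLE scaling gave 66 of 666, no filter 69 of 705 and DESeq2 85 of 1659. The cause of these shifts was not tested. The numbers were not taken to pair the libraries. Deviations of same-numbered libraries correlated between -0.42 and 0.18, and those of differently numbered ones between -0.23 and 0.40. These values cannot show whether libraries were prepared together. The median log2 fold change ran between 6.51 and 9.41 without 1 library, with the highest value without mutant archegonia 2. Pp3c4_2290 was called under all 14 alternatives and Pp3c10_14830 under 11 of 14. Without 1 mutant library, 84 to 91 members passed the limits of the rule in the mutant.

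Between genotypes in antheridia, 0 to 1 members were called without 1 library, and the median ran between 0.07 and 1.05. Leaving out the 3 libraries with the fewest genes detected sets 1 mutant antheridium library, mutant antheridia 1, against wild type, so its values restate that library: the median was -0.31 and Pp3c5_15435 -1.44. With 2 mutant archegonium libraries left there, Pp3c12_11560 turned to -1.25 in archegonia, with -1.29 to 3.67 without 1 library and the lowest value without mutant archegonia 3. In archegonia and for the interaction the count was 0 under every alternative run, without 1 library included (0 to 0). In mutant archegonia 56 of 94 members averaged under 1 CPM, where 3 counts stand for 0.0970 to 0.158 CPM a library. Whether depth limits the comparison of genotypes there was not tested.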
